A study of Mus musculus with 12 samples.

Results

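The genes described here encode the synaptic vesicle and the machinery that docks, primes, fuses and retrieves it. They are 38 genes chosen by name, and each was read from a probe set that the array annotation assigns to that gene alone, the brightest where a gene had several. Of the 38 genes, 35 had such a probe set, 69 probe sets in all, and 34 passed a filter on dim signal, among 10370 genes tested in the whole series. Sv2b, Sv2c and Rims1 were not analysed here. Syt7, a calcium sensor of slow release, did not pass the filter. It had log2 values of 6.48, 6.46 and 6.48 in total RNA of injured cord, against 6.74, 6.53 and 6.79 in sham cord. On polysomes its values were 6.17, 6.13 and 6.21 in injured cord, against 6.22, 6.14 and 6.18 in sham cord. None of the 12 values exceeded the brightest control probe set for absent organisms on the same array, so Syt7 is given no change.

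All animals were 10-week-old wild-type female C57BL/6 mice, and the study's title names Cpeb1 and axonal regeneration in the adult central nervous system. Injured mice had a laminectomy and a cut through 80% of the cord, whereas sham mice had the laminectomy alone; the sample titles call the sham cords naive. The tissue was 2.5 cm of spinal cord, centred on the site and collected 9 h after surgery. A small part of each homogenate yielded total RNA, and a sucrose gradient separated from the rest the RNA bound to polysomes, the strings of ribosomes on messages being translated. Each of the 4 groups (total injured, total sham, polysome-bound injured and polysome-bound sham) has 3 biological replicates, each on an Affymetrix array labelled from 5 µg of total or 3 µg of polysome-bound RNA. All groups are whole tissue, so fewer cells of a type and less RNA per cell cannot be told apart. The cord piece holds local neurons together with glia, vessels and invading blood cells.

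A presynaptic terminal releases transmitter when calcium enters and binds sensors on docked vesicles, chiefly synaptotagmins. SNARE proteins of the vesicle and of the plasma membrane then zip together and fuse the membranes, with complexins and Munc13 proteins setting readiness, and the ATPase Nsf with its SNAP adaptors takes the spent SNARE complexes apart. Synapsins hold the reserve of vesicles, Rab3 proteins and the scaffolds bassoon and piccolo place vesicles at the active zone, and clathrin adaptors, endophilin, amphiphysin and dynamin retrieve the membrane after fusion. In the spinal cord these messages come mainly from interneurons and motor neurons, and some members are also made by glia and by endocrine cells.

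The libraries differed in ways that touch every comparison. RNA integrity on the array is read from control probe sets near the 3′ and the 5′ end of Gapdh. The 3′ minus 5′ difference was 1.40 ± 0.22 in injured and 0.234 ± 0.049 in sham total RNA (log2, SD, n = 3 each), and 2.83 ± 0.27 in injured and 0.871 ± 0.029 in sham polysome-bound RNA. The groups did not overlap in either fraction, with an exact two-sided permutation p of 0.1 each, the smallest that 3 arrays against 3 allow. The same difference for Actb was 1.80 in injured and 1.46 in sham total RNA, and 3.26 and 1.68 in polysome-bound RNA. The median hybridization control averaged 9.88 in injured and 10.36 in sham total RNA, and 9.83 and 10.15 in polysome-bound RNA. Neither measure overlapped between injured and sham arrays (exact permutation p 0.1 each). The median over all probe sets was 7.78 in injured and 7.77 in sham total RNA, and 7.18 in injured and 7.26 in sham polysome-bound RNA. Neuron marker genes averaged 11.39 to 11.45 on the arrays of injured and 11.24 to 11.33 on those of sham total RNA, and all 18 lay above the brightest absent control in every group, as did the 10 astrocyte and 7 oligodendrocyte markers tested. Their part, and that of RNA integrity and of the hybridization controls, in the changes below was not tested.

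Changes were tested with limma over all 10370 genes, and a gene was called at a Benjamini-Hochberg adjusted p under 0.05. The deposited values differ in level between the fractions and in distribution between the operations, so each call was repeated after quantile normalization and after centring each array on its median. A call that held in the same direction on the deposited values and in both repeats is described as holding in 3 scalings. All log2 changes are of deposited values, injured minus sham or polysome-bound minus total, with the standard error from limma.

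In total RNA, 7 of the 34 genes fell after injury and 13 rose, beside 18.1% of all genes that fell and 42.1% that rose. All 7 falls held in 3 scalings, beside 9.41% of all genes. Only 3 of the 13 rises did, those of Napb, Sh3gl2 and Doc2b, beside 20.4% of all genes. The members had a median change of 0.09, against 0.12 for all genes tested. The deepest falls were those of Rph3a, Syt1 and Syn2. Members rose in all 6 roles on the deposited values, whereas the falls lay in the roles of calcium sensors, vesicle proteins, and Rab3 and active zone genes. The calcium sensor role includes Syt13, which does not bind calcium. When a gene was read from the mean of its probe sets in place of the brightest, 13 members fell and 5 rose. Of all 10370 genes, 2233 fell and 3647 rose when read in this way. The 7 falls kept their call under that reading, whereas the changes of Napb and Doc2b became -0.24 and -0.02 and were not called, and that of Sh3gl2 became a fall, at -0.27.

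Rph3a encodes rabphilin, a C2-domain effector of Rab3 on the vesicle. It had 7.00, 6.84 and 7.18 in injured total RNA, against 8.14, 8.13 and 8.23 in sham total RNA. Every injured array lay far below every sham array. The change was -1.16 ± 0.15, a 2.24-fold fall, with a limma adjusted p of 2.6e-05. Of the 3 injured arrays, 2 exceeded their brightest absent control.

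Syt1 is the calcium sensor of fast, synchronous release in the forebrain. Its values were 7.33, 7.17 and 7.54 in injured total RNA, against 8.30, 8.09 and 8.46 in sham total RNA. The groups did not overlap, and the 1.91-fold fall (-0.94 ± 0.09) had a limma adjusted p of 4.3e-06. Syn2, a synapsin that tethers reserve vesicles, read 9.41, 9.23 and 9.49 in injured and 9.98, 9.96 and 10.06 in sham total RNA. Here too the groups were apart, by 1.54-fold (-0.62 ± 0.10, limma adjusted p 0.00023).

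The sequence before the transcription start is shown for these 3 members, which fell furthest together in total RNA, and for Syn1, a synapsin that fell on polysomes. Each is the 250 bases before the first start listed by RefSeq (GRCm38.p6), 5′ to 3′ on the strand of the gene. Capitals mark 4 short motifs found on either strand: the GC box GGGCGG, the CCAAT box CCAATC, the cyclic AMP response element TGACGTCA and TTCAGCACC, the left part of the RE1 element that the neuronal repressor REST binds.
Rph3a (chr5:121010093-121010342, minus strand): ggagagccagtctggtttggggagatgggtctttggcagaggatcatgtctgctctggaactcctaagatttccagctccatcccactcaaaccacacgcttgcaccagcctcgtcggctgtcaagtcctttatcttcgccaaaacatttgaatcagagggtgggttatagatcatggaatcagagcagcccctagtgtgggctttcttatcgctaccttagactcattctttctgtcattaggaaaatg
Syn2 (chr6:115134652-115134901, plus strand): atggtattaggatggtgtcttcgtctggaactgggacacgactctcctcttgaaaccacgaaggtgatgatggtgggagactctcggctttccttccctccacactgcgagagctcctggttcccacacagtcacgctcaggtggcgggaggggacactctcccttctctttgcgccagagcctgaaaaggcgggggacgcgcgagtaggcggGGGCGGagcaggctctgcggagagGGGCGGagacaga
Syt1 (chr10:109010976-109011225, minus strand): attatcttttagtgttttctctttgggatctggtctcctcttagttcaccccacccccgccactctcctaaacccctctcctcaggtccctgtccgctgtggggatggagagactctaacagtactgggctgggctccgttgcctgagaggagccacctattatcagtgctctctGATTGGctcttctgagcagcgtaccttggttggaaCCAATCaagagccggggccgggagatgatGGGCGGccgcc
Syn1 (chrX:20920919-20921168, minus strand): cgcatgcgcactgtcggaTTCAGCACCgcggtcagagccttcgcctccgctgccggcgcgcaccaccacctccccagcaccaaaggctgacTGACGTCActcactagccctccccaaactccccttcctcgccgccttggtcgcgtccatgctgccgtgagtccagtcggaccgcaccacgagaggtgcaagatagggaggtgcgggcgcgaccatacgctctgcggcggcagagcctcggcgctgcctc
The table of starts listed 3 for Rph3a, 2 each for Syn2 and Syt1 and 1 for Syn1, and only the first was searched. The Rph3a window held none of the 4 motifs. Syn2 had 2 GC boxes close to the start, and Syt1 had 1 GC box and 2 CCAAT boxes. Syn1 had 1 cyclic AMP response element and 1 RE1 left part. Among the 27 tested members with a window in the table, 18 held the GC box, 3 the CCAAT box, 2 the cyclic AMP response element and 1 the RE1 part, beside 32.9%, 15.1%, 1.62% and 0.285% of all 27025 genes. The members are all tested genes, whereas the 27025 include genes that were not tested in these data, so the 2 sets are unlike. The share among tested genes was not computed. A match is a string of letters and was not tested for binding.

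Among the other genes grouped with the calcium sensors, Syt13, an atypical synaptotagmin that does not bind calcium, fell by 0.31 ± 0.06 in total RNA (limma adjusted p 0.00051). Syt2, the fast sensor of hindbrain and spinal synapses, moved the other way. It had 11.11, 11.12 and 11.16 in injured and 10.86, 10.83 and 10.85 in sham total RNA, a rise of 0.28 ± 0.07 (limma adjusted p 0.0049) that became -0.01 after quantile normalization. Doc2b, a high-affinity sensor of spontaneous release, rose by 0.18 ± 0.05 (limma adjusted p 0.0078). Syt3, Syt4 and Syt11 had changes of 0.01, 0.17 and -0.13 and were not called.

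Of the 7 SNARE and disassembly genes, 3 rose and none fell in total RNA, a count close to the 42.1% of all genes that rose, and the rise of Napb alone held in 3 scalings. Napb encodes the brain-enriched SNAP adaptor that brings Nsf to spent SNARE complexes. It had 11.65, 11.66 and 11.61 in injured and 11.24, 11.08 and 11.19 in sham total RNA. All injured arrays lay above all sham arrays (0.47 ± 0.06, 1.38-fold, limma adjusted p 3.4e-05). Snap25, a plasma membrane SNARE, rose by 0.18 ± 0.06 (limma adjusted p 0.017), but its highest sham array equalled its lowest injured array at 13.57. Nsf rose by 0.15 ± 0.05 (limma adjusted p 0.018). Neither of these rises was called after quantile normalization, which turned that of Nsf to -0.10. The vesicle SNAREs Vamp1 and Vamp2, the plasma membrane SNARE Stx1a and the SNAP adaptor Napa had changes of 0.09, -0.11, -0.03 and 0.09, and none was called.

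The SNARE regulators Cplx1, a complexin that clamps and promotes fusion, and Dnajc5, the cysteine string protein that chaperones Snap25, rose by 0.17 ± 0.04 and 0.32 ± 0.05 on the deposited values (limma adjusted p 0.0017 and 0.00023). Neither rise was called after quantile normalization, and that of Cplx1 turned to -0.06. Cplx2, the second complexin, had a change of 0.07 ± 0.17 and was not called.

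Of the 6 vesicle proteins, 2 rose, 2 fell and 2 were not called in total RNA. Over all genes, 42.1% rose and 18.1% fell. Beside Syn2, the glycoprotein Sv2a fell. Sv2a had 10.12, 10.21 and 10.25 in injured and 10.38, 10.41 and 10.38 in sham total RNA. The groups were apart, yet the fall of 0.19 ± 0.06 (limma adjusted p 0.016) became -0.16 with an adjusted p of 0.075 without injured replicate 1. Synaptophysin, Syp, an abundant membrane protein of the vesicle, had 11.56, 11.64 and 11.56 in injured and 11.17, 11.19 and 11.21 in sham total RNA. That rise of 0.40 ± 0.06 (1.32-fold, limma adjusted p 0.00015) was not called after quantile normalization. Syn1 rose by 0.15 ± 0.06 (limma adjusted p 0.045), which turned to -0.14 after quantile normalization. The synaptogyrins Syngr1 and Syngr3, relatives of synaptophysin, had changes of 0.08 and 0.11 and were not called.

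At the active zone, bassoon and the small GTPase Rab3c fell. Bsn had 7.06, 7.03 and 7.01 in injured and 7.40, 7.33 and 7.37 in sham total RNA, with no overlap (-0.34 ± 0.04, limma adjusted p 2.8e-05). Rab3c fell by 0.28 ± 0.06 (limma adjusted p 0.0015). Piccolo, the scaffold related to bassoon, did not fall. Pclo had 9.33, 9.32 and 9.28 in injured and 9.04, 9.17 and 9.12 in sham total RNA, a rise of 0.20 ± 0.07 (limma adjusted p 0.024) that came to 0.00 after quantile normalization. Rab3a, Rab3b and the priming factor Unc13a had changes of 0.04, 0.08 and 0.00 and were not called.

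Among the endocytosis genes, 3 of 4 rose and none fell in total RNA, beside 42.1% and 18.1% of all genes, and the rise of Sh3gl2 alone held in 3 scalings. Sh3gl2, endophilin A1, which bends the retrieved membrane, had 12.07, 12.09 and 12.02 in injured and 11.70, 11.63 and 11.67 in sham total RNA. All injured arrays lay above all sham arrays (0.39 ± 0.06, 1.31-fold, limma adjusted p 7.6e-05). Snap91, the clathrin adaptor AP180, rose by 0.34 ± 0.05 (limma adjusted p 8.7e-05), though not after quantile normalization. Dnm1, the dynamin that pinches off vesicles, rose by 0.16 ± 0.05 (limma adjusted p 0.018), which turned to -0.07 after quantile normalization. Amph, amphiphysin, had a change of 0.10 and was not called.

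Several of the smaller rises in total RNA lost their call in fits that left out an array. Snap25 lost its call without sham replicate 2 (0.10) and without injured replicate 3 (0.14). Nsf lost its call without the same arrays, at 0.14 and 0.13. Dnm1 lost it without sham replicate 2 or injured replicate 1, at 0.15 each, and Pclo without sham replicate 1 (0.16), injured replicate 1 (0.19) or injured replicate 2 (0.19). Syn1 lost it without any of 5 arrays, which were sham replicates 2 and 3 (0.14 and 0.13) and injured replicates 1 and 2 (0.12 and 0.15) of total RNA and sham replicate 3 of polysome-bound RNA (0.15).

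**Figure D1:**
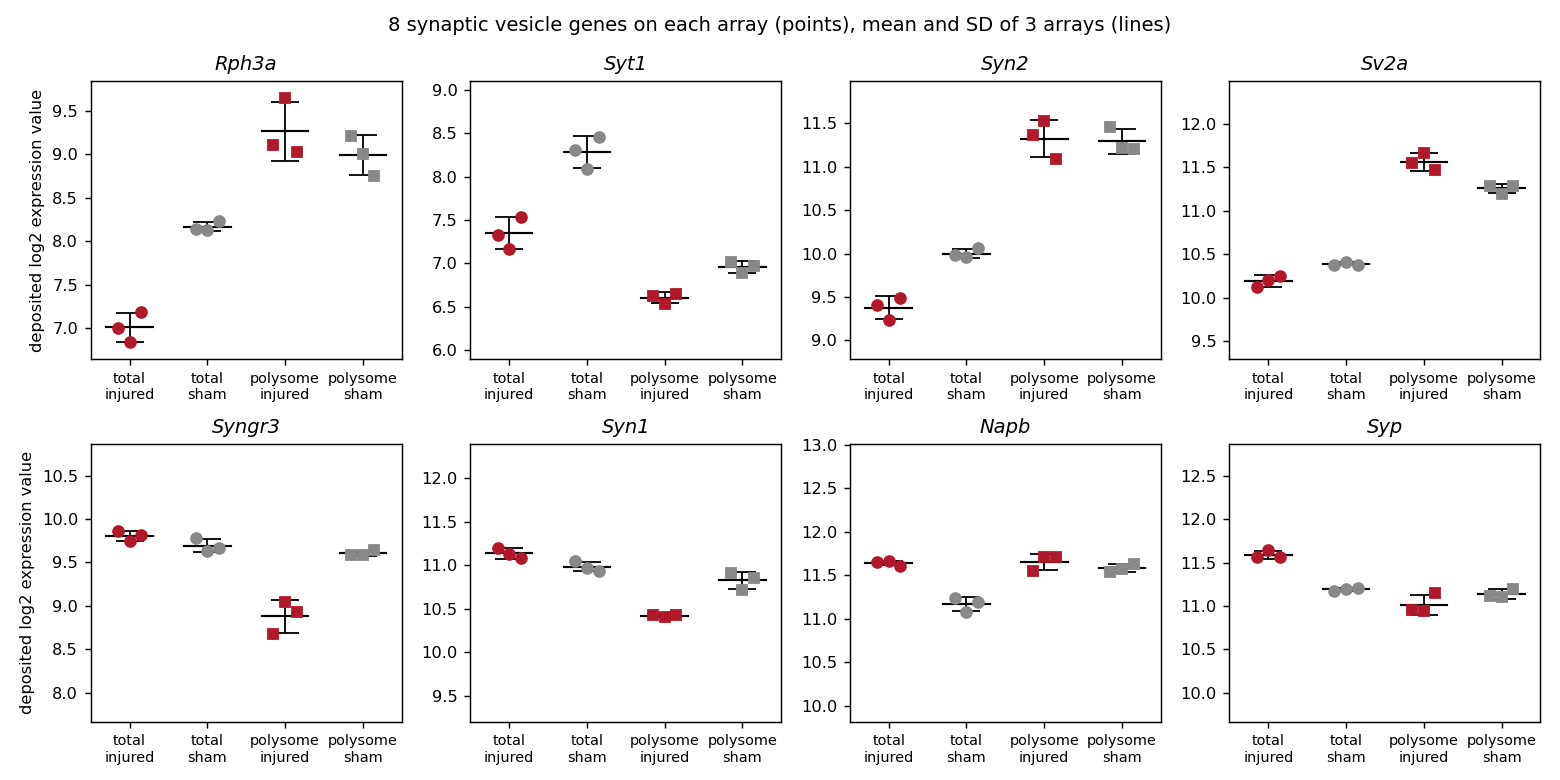
Deposited log2 values (y axis) of 8 members on each of the 12 arrays, with circles for total and squares for polysome-bound RNA, red for injured and grey for sham cord, and lines for the mean and SD of 3 arrays; every panel spans the same range of log2 units around its own centre. Rph3a, Syt1 and Syn2 were lower in injured than in sham total RNA without overlap, and Syngr3 and Syn1 were lower in injured than in sham polysome-bound RNA without overlap.

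On polysomes, 7 of the 34 genes fell after injury and 5 rose, beside 25.3% of all genes that fell and 13.8% that rose. Of these, 5 falls and 4 rises held in 3 scalings, beside 16.4% and 13.5% of all genes. The members had a median change of -0.01, against -0.04 for all genes. The deepest falls were those of Syngr3, Syn1 and Syt1, and the largest rises those of Syt2, Sv2a and Rab3a. Centring the arrays raised the number of rises to 11, and averaging the probe sets of a gene raised the number of falls to 14 and lowered that of rises to 3. Over all 10370 genes there were 2486 rises with centring, and 2870 falls and 1161 rises with averaging. With averaged probe sets Syt1 (-0.12) and Syt2 (0.09) were no longer called on polysomes, and Cplx1 changed sign, to -0.34. Syn2, not called on its brightest probe set, was then called lower on polysomes, at -0.39 ± 0.12 (limma adjusted p 0.018).

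Syngr3, a synaptogyrin of the vesicle membrane that binds the dopamine transporter, had 8.67, 9.04 and 8.93 in injured and 9.59, 9.59 and 9.64 in sham polysome-bound RNA. The sham arrays were nearly alike, and the injured arrays all lay well below them. The fall was 1.66-fold (-0.73 ± 0.08, limma adjusted p 1.8e-05).

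Syn1, the synapsin with the RE1 part in the sequence printed above, had 10.43, 10.40 and 10.43 in injured and 10.91, 10.72 and 10.85 in sham polysome-bound RNA. It fell without overlap, by 1.32-fold (-0.41 ± 0.06, limma adjusted p 0.00018). Syt1 fell on polysomes as in total RNA, with 6.63, 6.53 and 6.65 in injured and 7.02, 6.89 and 6.97 in sham cord (-0.35 ± 0.09, limma adjusted p 0.0089). The injured arrays of Syt1 were again all below the sham arrays.

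Dnm1 and Rab3b also fell on polysomes in 3 scalings, by 0.26 ± 0.05 and 0.28 ± 0.07 (limma adjusted p 0.0018 and 0.0076). Their changes in total RNA were 0.16 and 0.08. Stx1a fell by 0.24 ± 0.06 (limma adjusted p 0.0062) on the deposited values but was not called in all 3 scalings. Napa fell by 0.18 ± 0.07 with a limma adjusted p of 0.049, its injured and sham arrays overlapped, and the call was lost in 11 of the 12 fits that left out an array, with values from -0.21 without polysome-bound sham replicate 3 to -0.10 without polysome-bound injured replicate 1.

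Syt2 was the member that rose most on polysomes. It had 11.21, 11.09 and 10.90 in injured and 10.72, 10.66 and 10.84 in sham polysome-bound RNA, a rise of 0.33 ± 0.07 (limma adjusted p 0.0033) in which the lowest injured array lay just above the highest sham array. Sv2a, the target of the antiepileptic drug levetiracetam, had 11.55, 11.67 and 11.47 in injured and 11.29, 11.20 and 11.29 in sham polysome-bound RNA. Its groups did not overlap (0.30 ± 0.06, 1.23-fold, limma adjusted p 0.0017).

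Rab3a, the main Rab3 of brain synapses, had 12.28, 12.45 and 12.53 in injured and 12.20, 12.29 and 12.19 in sham polysome-bound RNA. The lowest injured array fell below the highest sham array, and the rise of 0.19 ± 0.06 (limma adjusted p 0.025) was lost without any of 4 arrays: sham replicate 1 (0.18), sham replicate 3 (0.17), injured replicate 2 (0.17) or injured replicate 3 (0.14). Snap91 rose by 0.18 ± 0.05 (limma adjusted p 0.01), which became 0.16 with an adjusted p of 0.052 without sham replicate 2. Cplx1 rose by 0.15 ± 0.04 (limma adjusted p 0.0051), though not in all 3 scalings. The remaining 22 members were not called, and their changes lay between -0.19 for Vamp2 and 0.29 for Cplx2.

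**Figure D2:**
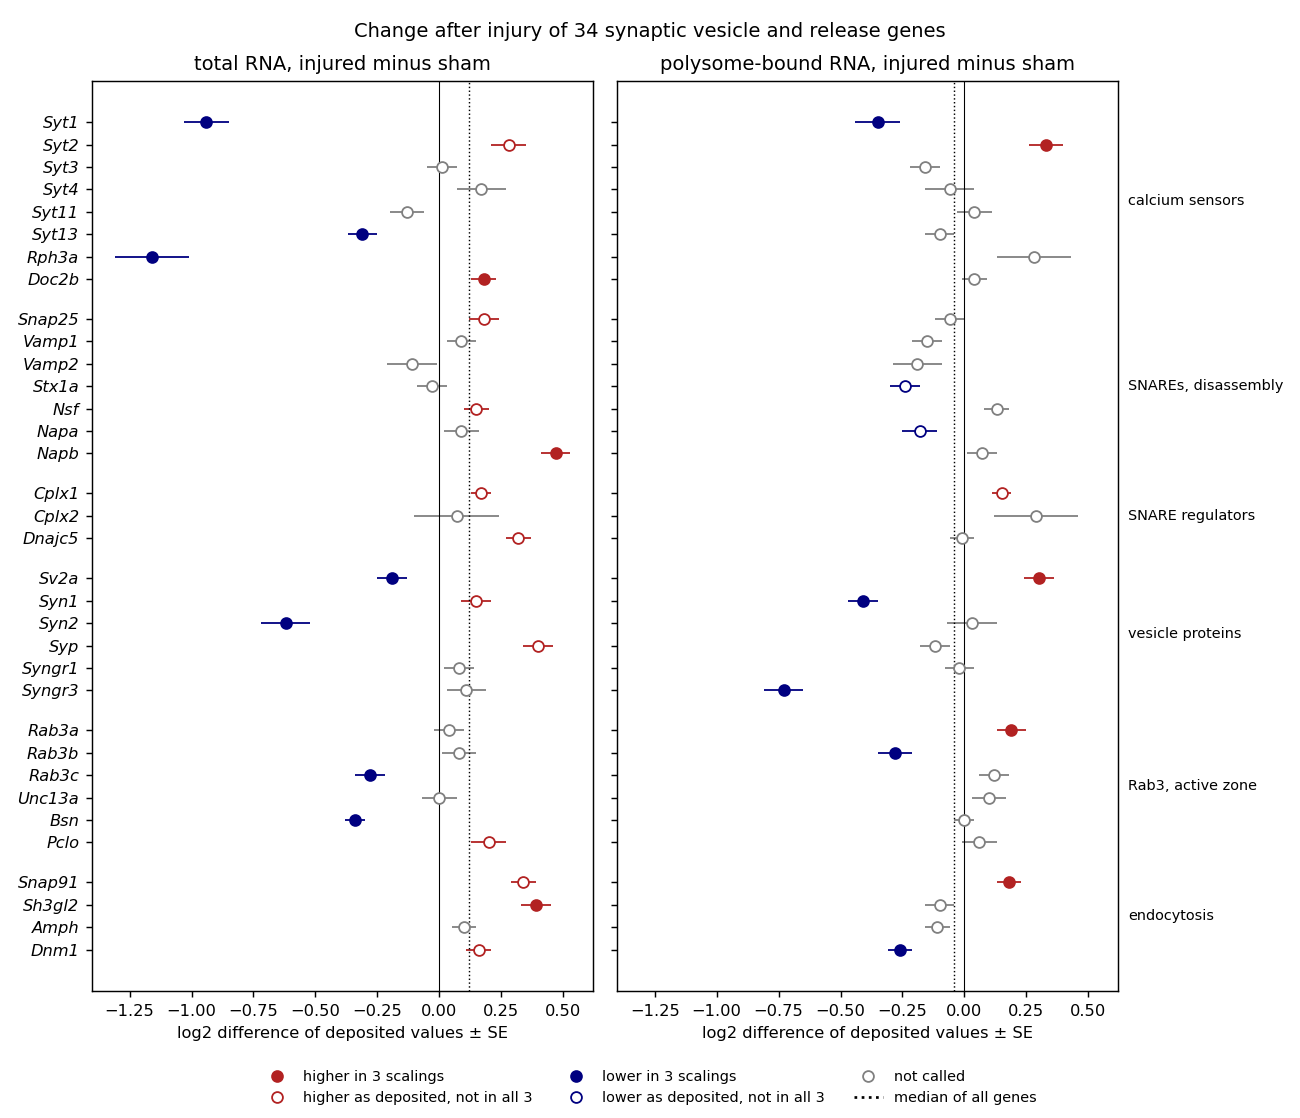
Log2 change after injury (x axis, injured minus sham, with the limma SE) of the 34 tested members, in total RNA on the left and polysome-bound RNA on the right, grouped by role; filled points were called in 3 scalings, coloured open points on the deposited values but not in all 3, and grey points were not called on the deposited values. Rph3a (-1.16), Syt1 (-0.94) and Syn2 (-0.62) lie furthest left in total RNA, and Syngr3 (-0.73) lies furthest left in polysome-bound RNA.

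The difference between the injury change on polysomes and that in total RNA was tested as the interaction of operation and fraction. It was positive for 7 members and negative for 12, beside 11.0% and 39.3% of all genes. In 3 scalings it was positive for 6 and negative for 2, beside 6.75% and 15.9% of all genes. The members had a median of -0.14, against -0.16 for all genes. After quantile normalization 11 members were positive and 3 negative, beside 1664 and 1877 of all 10370 genes. The 6 positive members called in 3 scalings were Rph3a, Syn2, Syt1, Sv2a, Rab3c and Bsn. The interaction contains the total RNA change itself, so it is not separate evidence of it. With the probe sets of a gene averaged, Syn2 (0.35) and Rab3c (0.04) lost the call, as did the negative members Dnm1 (-0.21), Napb (0.05) and Dnajc5 (0.02), and Vamp1 turned positive, at 0.38.

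Rph3a had the largest positive interaction, 1.44 ± 0.21 (limma adjusted p 0.00014). On polysomes it had 9.11, 9.65 and 9.03 in injured and 9.21, 9.00 and 8.75 in sham cord. These groups overlapped, and the polysome change of 0.28 ± 0.15 was not called, so no fall was called there. Syn2 had 11.36, 11.52 and 11.09 in injured and 11.46, 11.21 and 11.20 in sham polysome-bound RNA, likewise with overlap (0.03 ± 0.10). Its interaction was 0.65 ± 0.15 (limma adjusted p 0.0027).

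Syt1 had an interaction of 0.58 ± 0.13 (limma adjusted p 0.003), since it fell in both fractions but less on polysomes. Its injured polysome values of 6.53 to 6.65 lay just above the brightest absent controls of those arrays, at 6.40 to 6.49. The size of its polysome change, and so of its interaction, is therefore uncertain. For Sv2a the 2 fractions moved in opposite directions, down in total RNA and up on polysomes, and the interaction was 0.50 ± 0.09 (limma adjusted p 0.00061). Rab3c and Bsn had interactions of 0.40 ± 0.09 and 0.33 ± 0.06 (limma adjusted p 0.0019 and 0.00067). On polysomes their brightest probe sets had changes of 0.12 and 0.00 and were not called. A second probe set of Rab3c fell on polysomes by 0.35 ± 0.08 (limma adjusted p 0.00261), with an interaction of -0.04. The third had -0.20 on polysomes and an interaction of -0.23, neither of them called. Bsn read 6.63 to 6.69 on polysomes, near the brightest absent controls of 6.40 to 6.53, so the size of its polysome change is uncertain. Syt13 had 0.21 ± 0.08 (limma adjusted p 0.045), which did not hold in 3 scalings and was lost in 9 of the 12 fits that left out an array, with values of 0.17 to 0.23.

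Syngr3 had the largest negative interaction, -0.84 ± 0.12 (limma adjusted p 0.00012). In total RNA it had 9.86, 9.75 and 9.81 in injured and 9.78, 9.63 and 9.67 in sham cord, groups that overlapped, and the change of 0.11 was not called there. Sh3gl2 was the other negative member called in 3 scalings, at -0.49 ± 0.08 (limma adjusted p 0.00035). Its polysome values were 12.01, 12.17 and 12.21 in injured and 12.28, 12.24 and 12.18 in sham cord, which overlapped.

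Syn1 and Syp had interactions of -0.56 ± 0.09 and -0.52 ± 0.09 on the deposited values (limma adjusted p 0.00025 and 0.00047), but not in 3 scalings. Syn1 had 11.20, 11.13 and 11.08 in injured and 11.05, 10.97 and 10.94 in sham total RNA. Syp had 10.95, 10.94 and 11.15 in injured and 11.11, 11.10 and 11.20 in sham polysome-bound RNA. The injured arrays of Syn1 were the higher ones in total RNA and the lower ones on polysomes, whereas those of Syp overlapped the sham arrays on polysomes.

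The other 8 negative interactions, none of which held in 3 scalings, ran from -0.42 for Dnm1 to -0.20 for Amph. Those of Dnm1, Napb, Rab3b and Dnajc5 were also called after centring but not after quantile normalization, and that of Snap25 after quantile normalization but not after centring. Those of Vamp1, Napa and Amph were called in neither. Those of Snap25 (-0.23 to -0.16) and Vamp1 (-0.21 to -0.20) were each lost without any of 3 arrays, total sham replicate 2, total injured replicate 3 and polysome-bound sham replicate 1 for Snap25 and replicate 2 for Vamp1. The call of Napa was lost in 7 of the 12 fits without an array (-0.28 to -0.24) and that of Amph in 9 (-0.21 to -0.19).

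**Figure D3:**
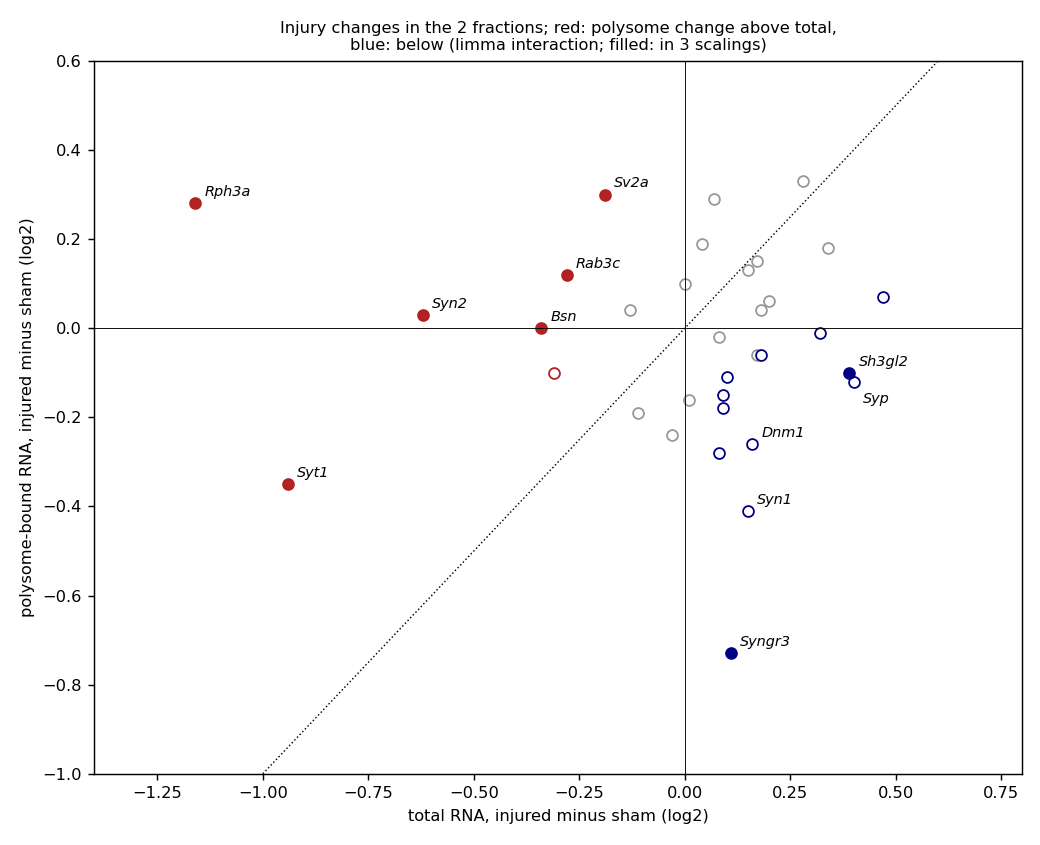
Injury change (log2, injured minus sham) of each of the 34 tested members on polysomes (y axis) against that in total RNA (x axis); the dotted line marks equal changes, red points had a positive and blue points a negative limma interaction, filled where it held in 3 scalings. Rph3a, Syn2, Syt1, Sv2a, Rab3c and Bsn lie above the line and Syngr3 and Sh3gl2 below it.

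Polysome-bound minus total RNA describes how much of a message is found on ribosomes relative to all genes on the same arrays, and the labelling input differed between the fractions. Since the deposited polysome values are lower as a whole, the difference is read against the median of all genes, which was -0.41 in injured and -0.30 in sham cord. After quantile normalization that median was 0.05 in injured and 0.04 in sham cord, and after centring 0.19 in injured and 0.21 in sham cord. The members stood higher than the median gene in both cords, with a median of 0.04 in injured and 0.24 in sham cord. Among the 7617 genes past a stricter filter, at the array median, the median was -0.375 in injured and -0.121 in sham cord. The median absent control was 5.71 in injured and 5.70 in sham polysome-bound RNA, against 6.06 and 6.08 in total RNA. The part of signal brightness in the members' difference from the median gene was not tested. The 18 neuron markers stood higher still, with medians of 0.31 in injured and 0.43 in sham cord. Of these, 10 were higher and 7 lower in injured cord, and 12 and 5 in sham cord. Motor neuron markers had lower medians than the members, at -0.17 in injured and -0.26 in sham cord. Genes of other release machinery, described below, had -0.43 and -0.28, close to all genes. Other vesicle proteins had -0.29 and 0.04, and other endocytosis genes -0.14 and -0.06. The medians of astrocyte markers were -1.03 in injured and -0.62 in sham cord, and those of endothelial markers -1.86 and -1.53.

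In injured cord 13 members were higher on polysomes and 11 lower, beside 13.6% and 72.7% of all genes. In 3 scalings 13 were higher and 2 lower, beside 13.6% and 23.7% of all genes. In sham cord 18 members were higher and 8 lower, beside 21.0% and 59.1% of all genes. There 17 were higher and 3 lower in 3 scalings, beside 19.2% and 16.0% of all genes. Quantile normalization gave 25 higher and 7 lower members in injured cord, and centring gave 28 higher and 2 lower in injured cord and 29 higher and 3 lower in sham cord. Over all 10370 genes, quantile normalization gave 4240 higher and 3364 lower in injured cord. Centring gave 5501 higher and 2456 lower genes there, and 5632 higher and 1959 lower in sham cord. With averaged probe sets of a gene, 9 members were higher and 15 lower in injured cord, and 13 and 13 in sham cord. Over all genes that reading gave 1115 higher and 7961 lower in injured cord, and 1707 and 6809 in sham cord.

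Rph3a, Syn2 and Sv2a had the highest polysome minus total differences of the members in injured cord. Rph3a differed by 2.26 ± 0.15 in injured cord and by 0.82 ± 0.15 in sham cord (limma adjusted p 2.6e-09 and 0.00011). Only 2 of the 3 total RNA arrays of injured cord exceeded their brightest absent control for Rph3a, so the size of its difference there is uncertain. Syn2 differed by 1.94 ± 0.10 in injured and 1.29 ± 0.10 in sham cord (limma adjusted p 4.3e-10 and 3.9e-08). These values are from the brightest probe set of Syn2. Its other probe set differed by 0.12 in injured and 0.07 in sham cord (limma adjusted p 0.45 and 0.661), and the mean of both by 1.03 and 0.68. Sv2a differed by 1.37 ± 0.06 in injured and 0.87 ± 0.06 in sham cord (limma adjusted p 9.9e-11 and 1.3e-08). The polysome arrays of these 3 genes lay above all total RNA arrays in both cords, by the values already given.

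Cplx2 had 9.70, 10.22 and 9.55 on polysomes and 8.65, 8.46 and 8.48 in total RNA of injured cord. In sham cord it had 9.93, 9.19 and 9.49 on polysomes and 8.51, 8.41 and 8.47 in total RNA. Its polysome arrays spread widely, yet all lay above the total RNA arrays, by 1.30 ± 0.17 in injured and 1.07 ± 0.17 in sham cord (limma adjusted p 4.8e-06 and 3.7e-05). Rab3a was also higher on polysomes, by 0.98 ± 0.06 in injured and 0.83 ± 0.06 in sham cord (limma adjusted p 2.2e-09 and 1.9e-08). Its total RNA values were 11.44, 11.42 and 11.44 in injured and 11.36, 11.46 and 11.38 in sham cord.

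At the other end, Pclo had 8.47, 8.45 and 8.21 on polysomes of injured and 8.35, 8.29 and 8.32 on those of sham cord. Its polysome arrays lay below its total RNA arrays, by 0.93 ± 0.07 in injured and 0.79 ± 0.07 in sham cord (limma adjusted p 1.2e-08 and 8.8e-08). Bsn had 6.65, 6.64 and 6.69 on polysomes of injured and 6.68, 6.63 and 6.68 on those of sham cord. Its difference from total RNA in injured cord was -0.37 ± 0.04 (limma adjusted p 1.2e-06), which turned to 0.16 after quantile normalization and 0.23 after centring. In sham cord it was -0.71 ± 0.04 (limma adjusted p 2.7e-09) and held in 3 scalings.

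Syt1 was lower on polysomes in both cords, at -0.74 ± 0.09 in injured cord on the deposited values (limma adjusted p 3.8e-06), and at -1.32 ± 0.09 in sham cord in 3 scalings (limma adjusted p 1.2e-08). Syngr3 was lower on polysomes in injured cord, at -0.92 ± 0.08 in 3 scalings (limma adjusted p 7.9e-08), and at -0.09 ± 0.08 in sham cord was not called.

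Some of these differences likewise lost their call in such fits. Syt3, at 0.17 in injured cord, lost its call without total injured replicate 1 (0.16) or 2 (0.12). In sham cord Syn1, at -0.16, lost it without total sham replicate 1 (-0.13) or polysome-bound sham replicate 2 (-0.11). Unc13a, at -0.19 in sham cord, lost it without total sham replicate 3 (-0.15) or polysome-bound sham replicate 1 or 2 (-0.17 each). Amph, at 0.13 in sham cord, lost it without any total sham replicate or polysome-bound sham replicate 1 or 3 (0.11 to 0.14), and had an adjusted p of 0.057 with replicate number within operation as a block.

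**Figure D4:**
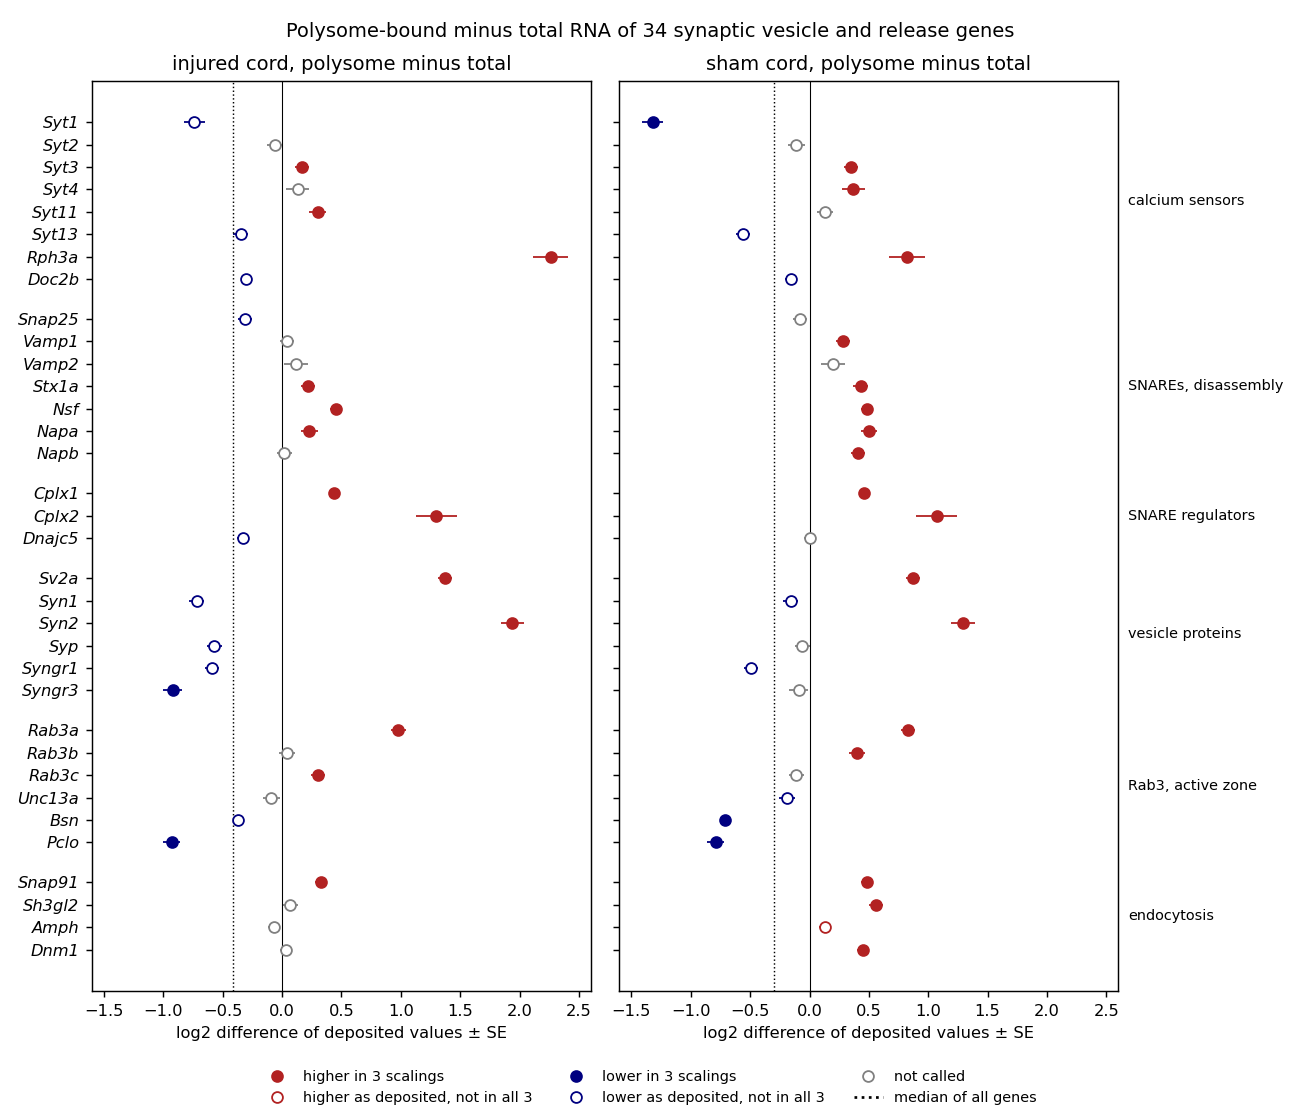
Polysome-bound minus total RNA (x axis, log2 of deposited values with the limma SE) of the 34 tested members by role, injured cord on the left and sham cord on the right; the dotted line is the median of all genes tested, and filled points were called in 3 scalings. Rph3a (2.26), Syn2 (1.94) and Sv2a (1.37) lie furthest right in injured cord, and Syn2 (1.29) and Cplx2 (1.07) in sham cord.

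The probe sets of a gene did not always move together. Of the 34 tested members, 21 had 2 or more kept probe sets, which gave 32 probe sets dimmer than the brightest. In total RNA, 25 of these 32 (78.1%) had a lower injury change than the brightest, with a median gap of -0.35, against 72.5% of 6185 dimmer probe sets of all genes with a median gap of -0.15. On polysomes it was 26 of 32 (81.2%) with a median gap of -0.26, against 61.4% and -0.06 for all genes. The places of the probe sets along their messages were not analysed here.

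The widest gap was that of Vamp1. Its brightest probe set had a total RNA change of 0.09, whereas its second fell by 1.92 ± 0.11 in total RNA and by 0.93 ± 0.11 on polysomes (limma adjusted p 4.2e-08 and 2.58e-05). Dnm1 had a second probe set that fell by 1.28 ± 0.14 in total RNA and 1.29 ± 0.14 on polysomes (limma adjusted p 9.85e-06 and 1.86e-05), against 0.16 and -0.26 for the brightest. The rise of Sh3gl2 in total RNA was likewise not shared, since its dimmest probe set fell by 0.93 ± 0.09 there and by 1.42 ± 0.09 on polysomes.

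Cplx1 had 3 probe sets, of which the upper 2 had changes of 0.17 and 0.12 in total RNA and the dimmest fell by 1.24 ± 0.16 (limma adjusted p 2.96e-05). Napb had 5, whose total RNA changes were 0.47, 0.13, -0.11, -0.84 and -0.86 in order of brightness. Syt4 went the other way, with 0.17 for the brightest and a rise of 0.79 ± 0.11 for the second (limma adjusted p 4.23e-05). Both probe sets of Syt1 and of Syn2 fell in total RNA, the second by 0.58 ± 0.07 and 0.86 ± 0.14, and both of Syngr3 fell on polysomes, the second by 0.71 ± 0.08. The second probe set of Syt1 had 0.12 on polysomes and was not called. Syn2's second probe set fell on polysomes as well, by 0.81 ± 0.14 (limma adjusted p 0.000555), against 0.03 for the brightest. Doc2b, whose rise in total RNA held in 3 scalings on the brightest probe set, fell by 0.21 ± 0.05 on its other (limma adjusted p 0.00226). The sign of the total RNA change thus differed between probe sets for Vamp1, Dnm1, Cplx1, Napb, Sh3gl2, Dnajc5, Nsf and Doc2b, and for Syngr1 (0.08 and -0.33) and Syngr3 (0.11 and -0.30), among others.

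**Figure D5:**
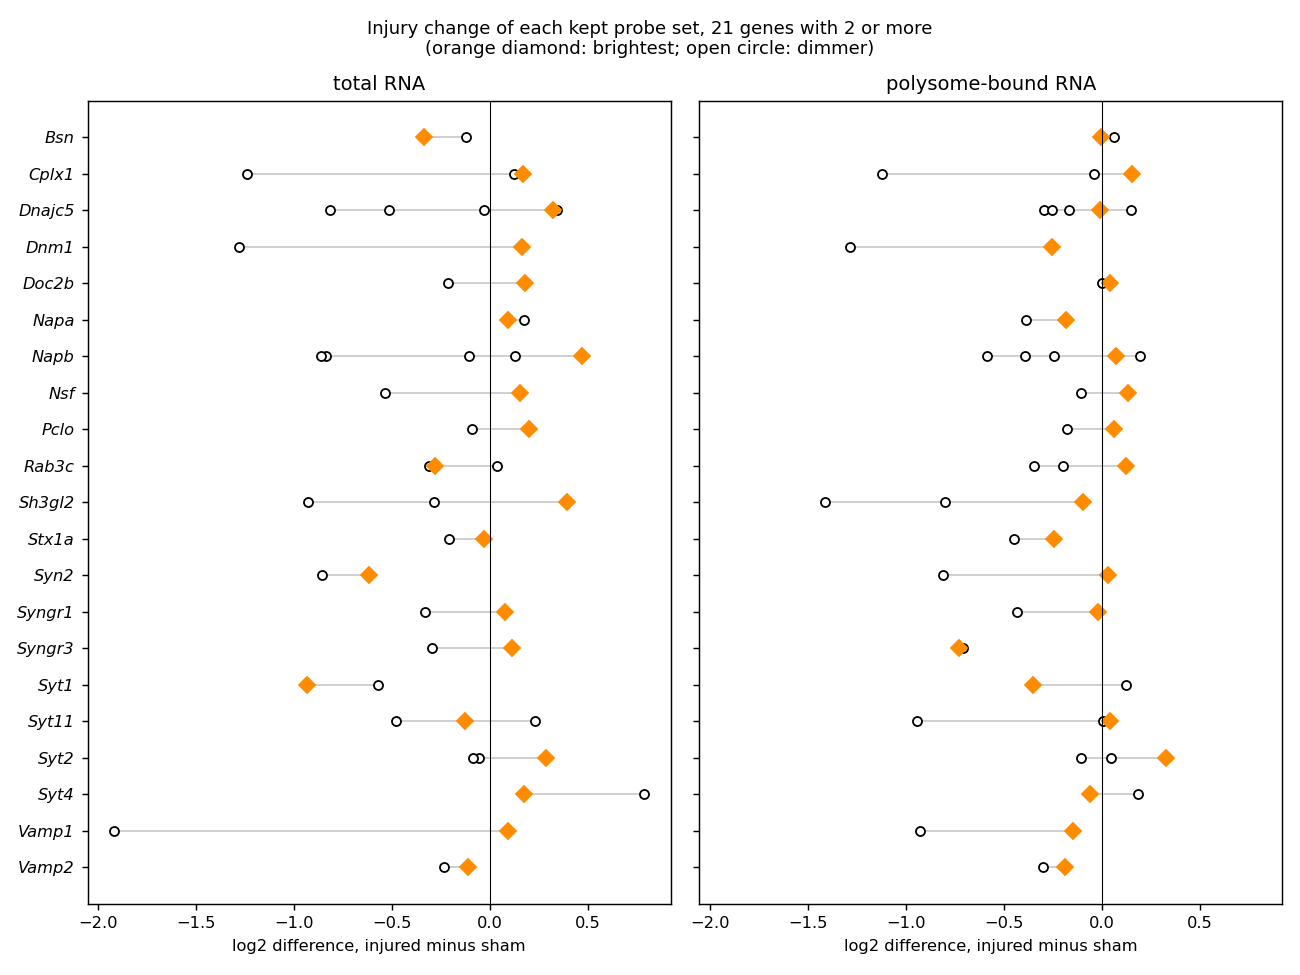
Injury change (x axis, log2, injured minus sham) of every kept probe set of the 21 members with 2 or more, in total RNA on the left and polysome-bound RNA on the right; orange diamonds are the brightest probe set of a gene and open circles the dimmer ones. The dimmer probe sets of Vamp1 (-1.92), Dnm1 (-1.28) and Cplx1 (-1.24) lie far left of their brightest in total RNA.

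Related genes outside the 38 were read from 3 further lists. Of 32 tested genes of other release machinery, 12 rose and 6 fell in total RNA, and 7 rose and 10 fell on polysomes; after quantile normalization 3 rose and 6 fell in total RNA. Over all genes, 42.1% rose and 18.1% fell in total RNA, and 13.8% rose and 25.3% fell on polysomes. After quantile normalization, 2361 of all 10370 genes rose and 1865 fell in total RNA. Snap23, the widely expressed relative of Snap25, rose by 0.50 ± 0.07 in total RNA and fell by 0.50 ± 0.07 on polysomes (limma adjusted p 9.5e-05 and 0.00017). Stxbp3, a Munc18 protein found in many tissues, rose in both fractions, by 0.48 ± 0.09 and 0.58 ± 0.09 (limma adjusted p 0.00041 and 0.00016). Rab27b, a GTPase of secretory vesicles, and Stxbp6, a protein with a SNARE motif that binds syntaxin, fell on polysomes by 0.74 ± 0.05 and 0.61 ± 0.05 (limma adjusted p 1.8e-07 and 2.8e-06).

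Among 20 other vesicle proteins, 12 rose and 2 fell in total RNA, and 3 rose and 6 fell on polysomes; after quantile normalization 3 rose and 3 fell in total RNA. Atp6v1a, a subunit of the proton pump that energises vesicle filling, rose by 0.59 ± 0.06 in total RNA and 0.30 ± 0.06 on polysomes (limma adjusted p 3.7e-06 and 0.0013). Slc18a3, the vesicular acetylcholine transporter, fell by 0.30 ± 0.10 in total RNA and 0.92 ± 0.10 on polysomes (limma adjusted p 0.018 and 1.3e-05). Synpr, synaptoporin, a relative of synaptophysin, fell by 0.73 ± 0.07 on polysomes (limma adjusted p 3.1e-06).

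Of 22 other genes of vesicle endocytosis, 6 rose and 7 fell in total RNA, and 2 rose and 4 fell on polysomes; after quantile normalization 1 rose and 11 fell in total RNA. Dnm3, a dynamin, fell by 0.68 ± 0.08 in total RNA and 0.67 ± 0.08 on polysomes (limma adjusted p 9e-06 and 1.8e-05). Epn2, an epsin that helps to curve clathrin-coated membrane, fell by 0.63 ± 0.07 in total RNA and 0.81 ± 0.07 on polysomes (limma adjusted p 1.8e-05 and 3.7e-06). The heavy chain of clathrin itself, Cltc, rose by 0.38 ± 0.06 in total RNA (limma adjusted p 0.00018), though not after quantile normalization.

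Markers of the cells that the cord piece could hold moved beside the members. Of 18 neuron markers, 11 rose and 3 fell in total RNA, but 1 rose and 4 fell after quantile normalization; on polysomes 7 rose and 3 fell. Rbfox3, the neuronal nuclear antigen NeuN, fell by 0.83 ± 0.08 in total RNA (limma adjusted p 4.2e-06), and Elavl4, a neuronal RNA-binding protein, rose by 0.64 ± 0.07 (limma adjusted p 1.2e-05). Of 6 motor neuron markers, none rose and 3 fell in total RNA, but 2 rose and 2 fell after quantile normalization; on polysomes 1 rose and 1 fell. Among 6 chromaffin and endocrine cell markers, whose cells share parts of the release machinery, 4 rose in total RNA and none after quantile normalization, and 1 fell on polysomes.

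Of 8 monocyte and neutrophil markers, 7 rose and none fell in total RNA, led by Cd14 at 2.27 ± 0.14 (limma adjusted p 1e-07); on polysomes 6 rose and 1 fell. Their array means ran from 9.04 to 9.50 in injured and 7.94 to 8.18 in sham total RNA. Of 6 microglia markers, 4 fell in total RNA and 5 on polysomes, and none rose. Astrocyte markers had 8 of 10 higher and none lower in total RNA, and 5 higher and 3 lower on polysomes. Of 7 endothelial markers, 2 rose and 2 fell in total RNA, and none rose and 2 fell on polysomes. Of 7 oligodendrocyte markers, 1 rose and 1 fell in total RNA, but 1 rose and 4 fell after quantile normalization; on polysomes none rose and 2 fell. The part of these shifts in the members' changes was not tested.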

How the data were processed

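RNA of mouse spinal cord was measured on 12 arrays, 3 in each of 4 groups. The authors deposited log2 values, 1 for each probe set on each array. No label states this scale; the values run from 5.26 to 14.65. Background correction and normalization are not given in the sources used here. Probe sets were named from the platform annotation. Of 22690 probe sets, 20380 named 1 gene, and 16555 passed the filter, signal above the array's own 25th percentile on 3 or more arrays. The brightest kept probe set stood for each of 10370 genes; 1 further probe set names Vamp1 together with another gene and was not used.

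Changes were fitted with limma 3.58.1 (R 4.3.3) on all 12 arrays together, as 4 group means, empirical Bayes with an intensity trend (14.1 degrees of freedom) and two-sided Benjamini-Hochberg adjusted p-values over all genes, called under 0.05. There were 5 comparisons. Values given for single dimmer probe sets came from a separate fit of the same form to the 16555 kept probe sets. Their p-values were adjusted over those probe sets. The script was tested on simulated data. Arrays have no read depth, so their number limits the precision. Within groups the arrays correlated at 0.993 to 0.9979. Array weights estimated with limma were 0.21, 0.47 and 0.89 for polysome-bound injured replicates 1, 2 and 3. They ran from 0.92 to 2.08 for the other arrays. The fits did not use these weights, so standard errors of comparisons with injured polysomes may be too small. Both fractions were taken from each homogenate, yet the main fit has no term for the cord and treats the 12 arrays as independent. Whether same-numbered samples share a cord is not stated. Deviations from the group means over genes correlated by number at 0.231, 0.18 and 0.168 between the fractions of sham cord, at -0.099, 0.198 and 0.098 between those of injured cord, and not by number between injured and sham cord. The alternatives were no filter, a stricter filter at the median, averaged probe sets of a gene, quantile normalization, median centring, the compared groups alone, a replicate block and leaving out each array. Promoter windows came from RefSeq (GRCm38.p6), matched by symbol for 27 of the 34 tested members.

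The members, their roles and the pathway and marker lists were chosen with earlier results of these data known. All members are described. Values by array are given for the members with the 3 largest rises and falls in each injury comparison, the 3 largest interactions each way and the 3 highest and lowest polysome minus total differences. Up to 3 called genes each way were eligible for naming from each other list.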

Additional observations from a re-analysis of the deposited data

Results flagged for a closer look

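The injury change differed between the fractions for 19 members by limma's test of the interaction, on the deposited values. Polysome minus total, the difference was positive for Rph3a (1.44), Syn2 (0.65), Syt1 (0.58), Sv2a (0.50), Rab3c (0.40), Bsn (0.33) and Syt13 (0.21). It was negative for Syngr3 (-0.84), Syn1 (-0.56), Syp (-0.52), Sh3gl2 (-0.49), Dnm1 (-0.42), Napb (-0.40), Rab3b (-0.35), Dnajc5 (-0.33), Napa (-0.27), Snap25 (-0.24), Vamp1 (-0.24) and Amph (-0.20). The positive differences of Rph3a, Syn2, Syt1, Sv2a, Rab3c and Bsn and the negative differences of Syngr3 and Sh3gl2 also held after quantile normalization and after centring. Averaging the probe sets of a gene turned those of Vamp1, Dnajc5 and Napb positive.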

How the results depend on the processing

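The counts of called members depended mostly on the scaling and on how probe sets were combined. In total RNA, 13 rises became 5 with averaged probe sets of a gene and 3 with quantile normalization, and 7 falls became 13 and 15. Over all 10370 genes, the 4369 rises became 3647 and 2361, and the 1873 falls became 2233 and 1865. On polysomes, 5 rises became 3 with averaged probe sets and 11 with median centring, and 7 falls became 14 with averaged probe sets. The interaction had 7 positive and 12 negative members, which became 11 and 3 with quantile normalization. Polysome against total RNA had 13 higher and 11 lower members in injured cord, which became 25 and 7 with quantile normalization and 28 and 2 with centring. With averaged probe sets they became 9 and 15. In sham cord, 18 higher and 8 lower members became 29 and 3 with centring, and 13 and 13 with averaged probe sets. Over all genes, averaged probe sets took the higher ones from 1412 to 1115 in injured and from 2174 to 1707 in sham cord. The lower ones went from 7538 to 7961 in injured and from 6131 to 6809 in sham cord. Over all genes, the share of calls that were higher was, on deposited and quantile normalized values, 70% and 55.9% in total RNA, 35.2% and 55.2% on polysomes, 21.8% and 47% for the interaction, 15.8% and 55.8% for polysome against total RNA in injured cord and 26.2% and 56.8% in sham cord; centring gave 57.2%, 36.6%, 69.1% and 74.2% for the last 4, and a filter at the array median gave 86.1% in total RNA. Left out 1 array at a time, the counts stayed at 9 to 13 rises and 6 to 8 falls in total RNA, 4 to 6 and 6 to 8 on polysomes, 6 to 8 positive and 8 to 13 negative interactions, and 12 to 15 higher and 11 lower in injured cord and 17 to 19 and 6 to 9 in sham cord. With the replicate block the counts were 13 and 7, 5 and 6, 6 and 11, 13 and 11, and 17 and 8. Under this block the limma adjusted p was 0.053 for the interaction of Syt13, 0.063 for that of Amph, 0.056 for the polysome fall of Napa and 0.057 for Amph in sham cord, and no other call of a member was lost. The filters and fits on the compared groups moved no count by over 1.5 times.

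The sign changes that follow are those of values called on the deposited scale, in the alternative, or in both. Members called in neither that changed sign are not listed. With averaged probe sets, the injury change in total RNA changed sign for Vamp1 (-0.91), Syngr1 (-0.13), Cplx1 (-0.32), Dnajc5 (-0.14), Nsf (-0.19), Napb (-0.24), Doc2b (-0.02), Sh3gl2 (-0.27) and Dnm1 (-0.56). That on polysomes changed sign for Syt11 (-0.30), Syn2 (-0.39) and Cplx1 (-0.34). The interaction changed sign for Vamp1 (0.38), Dnajc5 (0.02), Nsf (0.20) and Napb (0.05). Polysome minus total RNA in injured cord changed sign for Syt11 (-0.69), Sh3gl2 (-0.50) and Dnm1 (-0.37). Polysome minus total RNA in sham cord changed sign for Syt11 (-0.52), Vamp1 (-0.45), Dnajc5 (-0.31) and Dnm1 (-0.16). With quantile normalization, the injury change in total RNA changed sign for Syt2 (-0.01), Vamp1 (-0.14), Rab3a (-0.23), Syn1 (-0.14), Syngr1 (-0.23), Cplx1 (-0.06), Nsf (-0.10), Napa (-0.22), Pclo (0.00), Amph (-0.20) and Dnm1 (-0.07). The interaction changed sign for Syngr1 (0.28), Dnajc5 (0.01), Napa (0.10) and Amph (0.16). Polysome minus total RNA in injured cord changed sign for Syt13 (0.20), Unc13a (0.41), Bsn (0.16), Doc2b (0.28) and Amph (0.15). Polysome minus total RNA in sham cord changed sign for Syt13 (0.01), Rab3c (0.34), Dnajc5 (-0.18), Unc13a (0.11), Doc2b (0.35) and Amph (-0.01). With median centring, polysome minus total RNA in injured cord changed sign for Syt2 (0.54), Syt13 (0.25), Snap25 (0.29), Syp (0.03), Syngr1 (0.01), Dnajc5 (0.27), Unc13a (0.51), Bsn (0.23), Doc2b (0.30) and Amph (0.53). Polysome minus total RNA in sham cord changed sign for Syt2 (0.40), Snap25 (0.43), Rab3c (0.41), Syn1 (0.35), Syp (0.45), Syngr1 (0.02), Syngr3 (0.42), Unc13a (0.32) and Doc2b (0.35). The cause of these sign changes was not tested. The deposited values give no read depth. Members near the absent controls carry little information on size. Examples are Syt7, Rph3a in injured total RNA, Syt1 on injured polysomes and Bsn on polysomes.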
